A study of Mus musculus with 6 samples.

Results

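Matricellular proteins were examined in cultured mouse astrocytes with and without overexpression of JAG1, through the mRNA of 10 genes chosen by name: Sparc, Sparcl1, Thbs1, Thbs2, Thbs3, Tnc, Postn, Spp1, Ctgf and Cyr61, out of 23282 gene rows. All 10 have a row in every library. Every library came from cells that lack Ink4a (Ink4a/Arf-/- astrocytes). The control group (3 libraries, labelled Con, genotype WT) received the empty vector pcDNA3.1-puro, and the JAG1-overexpressing group (3 libraries, labelled JAG1) received pcDNA3.1-JAG1-puro, which carries the Notch ligand JAG1. The cells of both groups were grown in medium with serum. Whether the transfected cells were a pool or a single clone, and whether each library stands for its own transfection, is not given in the sources used here. The p-values therefore measure the spread between these libraries, which may be technical.

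The libraries held between 14341634 and 20489062 reads counted on genes. They were QuantSeq libraries, which read the 3' end of polyadenylated mRNA, so the reads of a gene do not scale with its length and the levels below are not divided by it. Levels are given as CPM (reads per 1e6 reads after TMM scaling of the libraries). Changes are log2 fold changes of JAG1-overexpressing against control cells with their standard error, from edgeR's quasi-likelihood test over 11712 genes with enough reads, and a gene was called higher or lower at an adjusted p under 0.05. Jag1 itself had 8.99, 10.8 and 11.2 CPM in the control libraries and 15.2, 13.6 and 13.8 CPM in the JAG1-overexpressing libraries, or 0.46 on the log2 scale (standard error 0.11, adjusted p = 0.00446). It is not stated whether transcripts of the plasmid end in a sequence that was counted as Jag1. Many genes differed between the groups: 55.1% of the tested genes were called, 27.4% higher and 27.7% lower, and for 62% every library of a group lay on the same side of every library of the other (31.1% higher, 30.9% lower). These shares are the background for each count that follows. In bulk RNA, fewer cells of a type and less RNA per cell cannot be told apart.

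The label astrocyte was compared with marker genes. Gfap and Aqp4, which define mature astrocytes, had 0 reads in every library, and 5 of 12 astrocyte markers had at most 3 reads in each library. Sox9, Gja1, Nes and Vim had reads in every library. So did Aldh1l1, S100b and Aldoc, at means of 2.98, 0.937 and 1.75 CPM in control cells. Their means in JAG1-overexpressing cells were 0.781, 0.253 and 0.530 CPM. Sox9, a transcription factor of glia, had a log2 fold change of -3.33 and was called lower. Vim, an intermediate filament gene that many cell types share, had 3106 ± 221 CPM in control against 3213 ± 38.3 CPM in JAG1-overexpressing cells (SD, n = 3 each). The summed level of the astrocyte list was 3267 to 3751 CPM in control and 3342 to 3408 CPM in JAG1-overexpressing libraries, most of it Vim. Of its 7 tested genes, 6 were lower and 0 higher, and Vim was the one not called. The part of this change in the results on the members was not tested.

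Matricellular proteins are secreted into the extracellular matrix but do not build its fibers. They bind matrix, growth factors and cell-surface receptors such as integrins, and so change how cells adhere, migrate and signal. In the brain, thrombospondins and hevin (Sparcl1) released by astrocytes are known to promote synapse formation, and SPARC counteracts this action of hevin. Tenascin C, osteopontin (Spp1) and the CCN proteins CTGF and CYR61 are known from injured tissue and from glioma.

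The members lie on 7 chromosomes, and the median log2 fold change of the genes tested on each of these lay between -0.0044 and 0.05. The files use the older symbols Ctgf and Cyr61 for the genes now annotated as Ccn2 and Ccn1. Promoter sequences of 7 members were found in the RefSeq table for GRCm38.p6, and those of Sparcl1, Thbs1 and Ctgf were not. The 250 bases before the start site are shown for Spp1, the member that rose, for Sparc, which fell and had the highest mean level over the 6 libraries together, and for Ccn1 (Cyr61), which was not called. Capitals mark matches, on either strand, to any of 5 short motifs that were searched: GGAATG (TEAD), TGGGAA (RBPJ, the DNA-binding factor of Notch signaling), TGANTCA (AP-1), TGTGGT (RUNX) and TGACGT (CREB). The windows are chr5:104434861-104435110 on the plus strand for Spp1, chr11:55420081-55420330 on the minus strand for Sparc and chr3:145649986-145650235 on the minus strand for Ccn1.
Spp1: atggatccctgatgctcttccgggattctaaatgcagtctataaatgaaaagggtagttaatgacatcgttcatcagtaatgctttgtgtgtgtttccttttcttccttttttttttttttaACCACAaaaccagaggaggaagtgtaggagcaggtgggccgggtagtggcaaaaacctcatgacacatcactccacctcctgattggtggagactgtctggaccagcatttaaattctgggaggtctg
Sparc: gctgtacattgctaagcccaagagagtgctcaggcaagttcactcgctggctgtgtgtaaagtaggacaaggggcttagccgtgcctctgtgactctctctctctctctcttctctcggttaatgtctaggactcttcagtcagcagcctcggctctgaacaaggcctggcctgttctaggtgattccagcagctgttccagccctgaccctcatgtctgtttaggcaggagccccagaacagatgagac
Ccn1: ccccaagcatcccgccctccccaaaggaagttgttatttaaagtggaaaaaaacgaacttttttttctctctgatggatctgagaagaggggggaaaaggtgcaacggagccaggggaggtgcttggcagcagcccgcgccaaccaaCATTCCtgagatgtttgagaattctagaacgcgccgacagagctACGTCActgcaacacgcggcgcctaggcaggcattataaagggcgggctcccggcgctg

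The Ccn1 window held the TEAD letters, starting 103 bases before the start site, and the CREB letters, starting 59 bases before it. The Spp1 window held the RUNX letters 128 bases before the start site, and the Sparc window held none of the 5 motifs. The RBPJ letters were found in the Thbs3 window and in both Tnc windows, and in no window of the other members with an entry. Of all 32851 windows of this length in the table, 12.6% held the TEAD letters, 21.6% the RBPJ letters, 6.75% the AP-1 letters, 14.05% the RUNX letters and 6.47% the CREB letters, and none of the motifs overlapped another in the windows shown. A match describes letters and is not a binding site.

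Of the 10 members, 8 had enough reads to be tested. In JAG1-overexpressing cells, Ctgf, Thbs1 and Sparc were lower, Spp1 was higher, and Cyr61, Thbs2, Thbs3 and Tnc did not pass the test. Thus 4 of 8 tested members were called, or 50.0%, beside 55.1% of all tested genes. The groups did not overlap for the same number, 3 lower and 1 higher, beside 62% of all tested genes (30.9% lower, 31.1% higher). With a change of at least 2-fold besides the adjusted p, 1 member was lower and 0 were higher, beside 8.49% and 5.46% of all tested genes. The median log2 fold change of the tested members was -0.10, against 0.00386 for all tested genes. Sparcl1 and Postn had too few reads for the test.

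**Figure D1:**
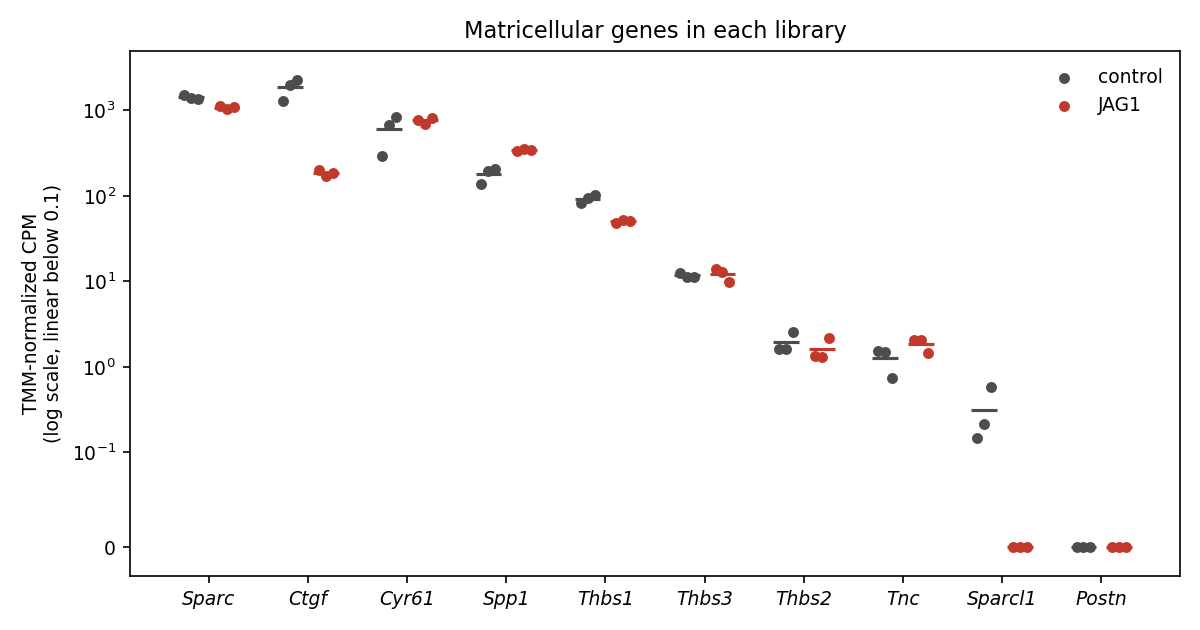
Level of each of the 10 matricellular genes in each library, in TMM-normalized CPM on a log scale that is linear below 0.1; points are libraries and short lines are group means (3 control, 3 JAG1-overexpressing). Ctgf fell from a mean of 1857 to 184 CPM, while Cyr61 overlapped between the groups and Postn was at 0 in every library.

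**Figure D2:**
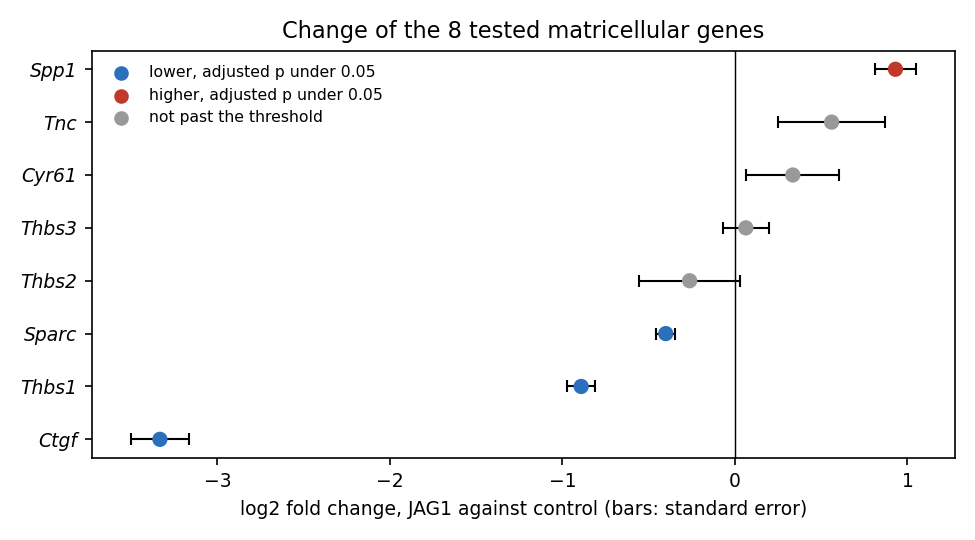
Log2 fold change of the 8 tested members, JAG1-overexpressing against control, with the standard error as bars and the color giving the call at an adjusted p under 0.05. Values run from -3.33 for Ctgf to 0.93 for Spp1.

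The CCN genes encode cysteine-rich secreted proteins that bind integrins and heparan sulfate, and both members here are immediate targets of the transcription factors YAP, TAZ and TEAD. Ctgf, which encodes connective tissue growth factor, had 1308, 2002 and 2262 CPM in the control libraries and 199, 169 and 184 CPM in the JAG1-overexpressing libraries. The groups lay far apart, and the lowest control library was control replicate 1. The level in control cells was 10.1-fold that in JAG1-overexpressing cells (log2 fold change -3.33, standard error 0.17, adjusted p = 2.91e-08). Among all tested genes Ctgf ranked 112 by mean level and 224 by the size of its fall.

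Cyr61, a close relative of Ctgf, had 294, 683 and 843 CPM in the control libraries and 772, 699 and 824 CPM in the JAG1-overexpressing libraries. The JAG1-overexpressing values lay within the range of the controls, of which replicate 1 was low. The log2 fold change was 0.34 (standard error 0.27, adjusted p = 0.313). Without control replicate 1 it was 0.00419 (adjusted p = 0.969), and without control replicate 3 it was 0.64 (adjusted p = 0.0316), so the value for Cyr61 rests on which control libraries are used.

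In control replicate 1, Cyr61 was 2.59-fold below the mean of the other control libraries, and 0.307% of the tested genes had a lower ratio. Ctgf was 1.63-fold and Spp1 1.45-fold below, with 1.99% and 4.07% of the tested genes lower. This library had the most reads of the 6. Without it, the log2 fold change was -3.53 for Ctgf and 0.77 for Spp1, both still called.

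The CCN genes differed in their ratio to each other. The ratio of Ctgf to Cyr61 reads was 4.44, 2.93 and 2.68 in the control libraries and 0.258, 0.242 and 0.223 in the JAG1-overexpressing libraries. The mean log2 ratio was 1.71 ± 0.39 (SD, n = 3) in control and -2.06 ± 0.11 (SD, n = 3) in JAG1-overexpressing cells, a difference of -3.76. An exact permutation test over the libraries, two-sided and chosen after the values were seen, gave p = 0.1, the smallest that 3 libraries against 3 allow. This result was fixed once the ratios were seen not to overlap, so nothing is concluded from it.

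**Figure D3:**
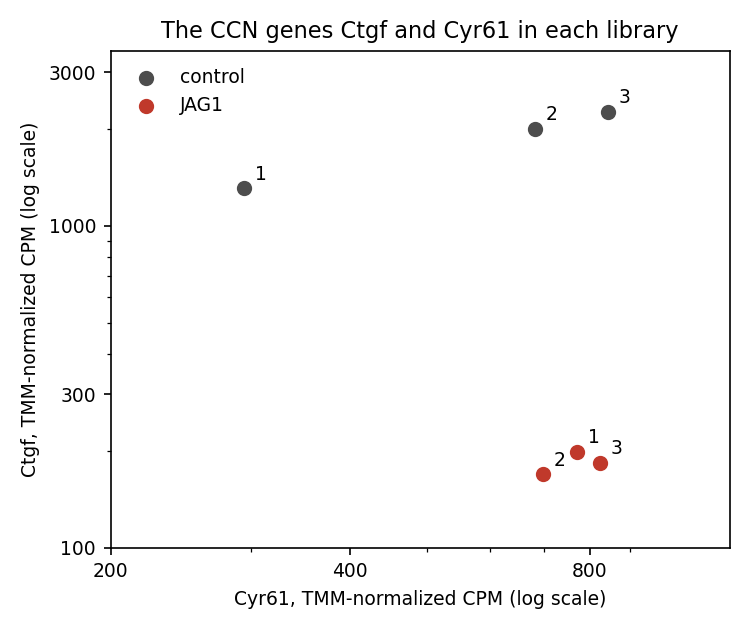
Level of Ctgf against that of Cyr61 in each library, both in TMM-normalized CPM on log axes, with the replicate number beside each point. The JAG1-overexpressing libraries sit at 169 to 199 CPM of Ctgf, at 699 to 824 CPM of Cyr61, between control replicates 2 (683 CPM) and 3 (843 CPM).

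Thrombospondins are large trimeric or pentameric glycoproteins of the matrix, and thrombospondin 1 is known to activate latent TGF-β. Thbs1 had 83.1, 93.4 and 103 CPM in the control libraries and 47.6, 52.1 and 51.0 CPM in the JAG1-overexpressing libraries. Every JAG1-overexpressing library lay below every control library. Control cells had 1.86-fold the level of JAG1-overexpressing cells (log2 fold change -0.89, standard error 0.08, adjusted p = 3.70e-06).

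Thbs2, the trimeric relative of Thbs1, was near the limit of use, with 1.63, 1.61 and 2.56 CPM in control and 1.35, 1.31 and 2.19 CPM in JAG1-overexpressing libraries, or 19 to 49 reads per library. Its groups overlapped (log2 fold change -0.26, standard error 0.29, adjusted p = 0.471), and leaving out control replicate 3 gave -0.015 while leaving out JAG1-overexpressing replicate 3 gave -0.54. Thbs3, a pentameric thrombospondin, had 12.6, 11.4 and 11.3 CPM in control and 14.06, 13.0046 and 9.72 CPM in JAG1-overexpressing libraries. Its groups also overlapped (log2 fold change 0.06, standard error 0.13, adjusted p = 0.710), and the value was -0.053 without JAG1-overexpressing replicate 1. Among the thrombospondins, Thbs1 had the highest level in both groups.

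SPARC, also called osteonectin, binds collagen and calcium and loosens the adhesion of cells. Sparc ranked 78 of all tested genes by mean level. It had 1519, 1390 and 1379 CPM in the control libraries and 1127, 1032 and 1089 CPM in the JAG1-overexpressing libraries. The groups did not overlap, and the fall was smaller than that of Thbs1, with control cells at 1.32-fold the level (log2 fold change -0.40, standard error 0.06, adjusted p = 0.000103).

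Sparcl1 encodes hevin, the SPARC relative that adult astrocytes release in quantity. It had 3, 4 and 11 reads in the control libraries and 0 reads in each JAG1-overexpressing library, where a count of 0 allows up to 3 reads, or 0.150 to 0.206 CPM in these libraries. Set against that limit, averaged over the JAG1-overexpressing libraries, the mean control level of 0.313 CPM was at least 1.74-fold higher. This bound rests on control replicate 3, which held 11 of the 18 reads, and without that library it was 1.01-fold. Such limits hold for counting error alone, because several reads can stem from 1 molecule. Hevin mRNA was thus at 18 reads in all control libraries together, where Sparc had between 25898 and 30760 reads in each.

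Spp1 encodes osteopontin, a phosphorylated ligand of αv integrins and of CD44. It had 139, 197 and 207 CPM in the control libraries and 339, 354 and 340 CPM in the JAG1-overexpressing libraries. The groups did not overlap, and the JAG1-overexpressing libraries differed little among themselves (344 ± 8.38 CPM, SD, n = 3). The rise was 1.91-fold (log2 fold change 0.93, standard error 0.12, adjusted p = 4.47e-05).

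Spp1 and Sparcl1 lie on chromosome 5 (GRCm38.p6, chr5:104435111-104441053 and chr5:104079108-104114088) in a cluster of genes for acidic matrix proteins of bone and tooth. Dspp, Dmp1, Ibsp and Mepe, which lie between them, had 0 reads in every library. Pkd2, the next gene with a row beyond Spp1, was not called (log2 fold change -0.07, standard error 0.07, adjusted p = 0.431), and Gm17660, beside Sparcl1, had 0 reads.

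Tnc encodes tenascin C, a hexameric glycoprotein of developing and injured tissue. It had 1.53, 1.503 and 0.732 CPM in control and 2.04, 2.06 and 1.46 CPM in JAG1-overexpressing libraries, or 14 to 41 reads per library. The groups overlapped (log2 fold change 0.56, standard error 0.31, adjusted p = 0.145), and the value was 0.28 without control replicate 3. Postn, which encodes periostin, a ligand of αv integrins, had 0 of 109186553 reads over the 6 libraries.

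By mean level over all libraries, the members came in the order Sparc, Ctgf, Cyr61, Spp1, Thbs1, Thbs3, Thbs2, Tnc, Sparcl1 and Postn. In control cells Ctgf stood above Sparc in replicates 2 and 3 and below it in replicate 1, so that these neighbors did not differ beyond their spread. In JAG1-overexpressing cells the order at the top was Sparc, Cyr61, Spp1 and Ctgf, with no overlap between them. Thbs2 lay above Tnc in the control libraries, at 1.61 CPM and more against 1.53 CPM and less, and the ranges of these genes overlapped in JAG1-overexpressing cells.

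Summed over the 10 members, the level was 3359, 4381 and 4808 CPM in the control libraries and 2502, 2323 and 2502 CPM in the JAG1-overexpressing libraries. Without Ctgf the sums overlapped, at 2051 to 2547 CPM in control and 2154 to 2318 CPM in JAG1-overexpressing cells. Ctgf held 38.9% to 47.0% of the summed level in control and 7.30% to 7.96% in JAG1-overexpressing libraries. The share of Cyr61 was 8.76% to 17.5% in control and 30.1% to 32.9% in JAG1-overexpressing libraries, and that of Spp1 was 4.13% to 4.50% and 13.6% to 15.2%. Sparc held 28.7% to 45.2% and 43.5% to 45.0%. Shares of the same sum depend on each other, so the lower share of Ctgf raises those of the other members. The level of Cyr61 itself was not called.

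**Figure D4:**
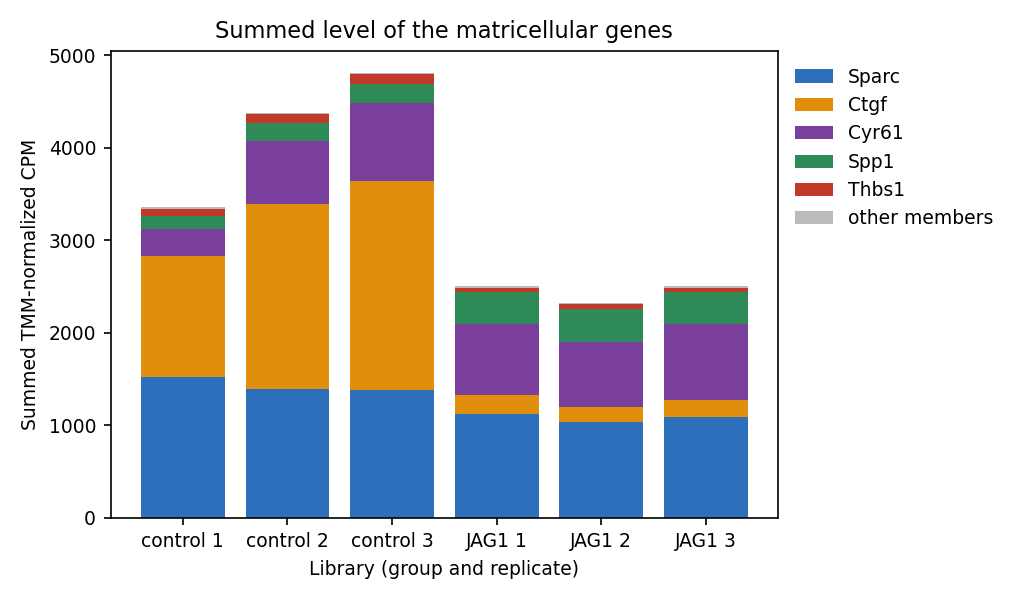
Summed TMM-normalized CPM of the 10 members in each library, divided by gene, with the 5 most abundant members in color and the others in gray. The JAG1-overexpressing libraries reach 2323 to 2502 CPM, and without Ctgf the control libraries reach 2051 to 2547 CPM.

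The libraries were also searched for genes with a pattern like that of Ctgf, the member with the largest change, and of Sparc, the member with the highest mean level. Over the 6 libraries, the log2 CPM of Aldh3a1, H2afy2 and Ank followed Ctgf most closely among 7808 genes (Pearson's r from 0.9990 to 0.9996), and Trim32, Txndc15 and Aqp5 followed Sparc (r from 0.998 to 0.999). These values describe a contrast of the groups that all these genes share, and the libraries share their depth and scaling. Aldh3a1, an aldehyde dehydrogenase, fell by 1.14 on the log2 scale, less than Ctgf.

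Relatives of the members in the same protein families were next compared. Of 20 such genes, 12 had at most 3 reads in every library and 5 were tested, of which 3 were lower and 1 higher (median log2 fold change -0.86). Tgfbi, which encodes a matrix protein related to periostin, had 24.2 ± 1.79 CPM in control against 1.31 ± 0.166 CPM in JAG1-overexpressing cells (SD, n = 3 each) (log2 fold change -4.18, standard error 0.14, adjusted p = 1.02e-09). Fstl1, a relative of SPARC, changed by -1.97 on the log2 scale (standard error 0.12, adjusted p = 1.43e-07). In the CCN family, Wisp1 had 249 ± 4.91 CPM in control against 137 ± 1.76 CPM in JAG1-overexpressing cells (SD, n = 3 each) (log2 fold change -0.86, adjusted p = 5.85e-08), and Wisp2 rose by 0.65 on the log2 scale (standard error 0.19, adjusted p = 0.0136). Wisp1 lies on chromosome 15, whose 458 tested genes had a median log2 fold change of -0.53, and the part of that shift in its fall was not tested. The call of Wisp2 was lost without control replicate 2 (adjusted p = 0.0559) and without JAG1-overexpressing replicate 2 (adjusted p = 0.0521).

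Receptors of matricellular proteins were measured in 26 genes, of which 15 were tested: 3 were higher and 8 lower (median log2 fold change -0.26). Cd44, a receptor of hyaluronan and of osteopontin, was higher, with 111 ± 4.55 CPM in control against 181 ± 10.4 CPM in JAG1-overexpressing cells (SD, n = 3 each) (log2 fold change 0.71, standard error 0.06, adjusted p = 1.83e-06). Itgav, the αv integrin chain, was also higher (log2 fold change 0.48, standard error 0.07, adjusted p = 0.000133), as was Lrp8, a receptor of reelin and thrombospondin (log2 fold change 0.30, adjusted p = 0.00343). Itgb5, a partner chain of αv, was lower, from 39.6 ± 1.44 to 14.01 ± 0.0957 CPM (SD, n = 3 each) (log2 fold change -1.50, standard error 0.08, adjusted p = 2.82e-08). Itga5, the chain of the fibronectin receptor, changed by -1.33 on the log2 scale (standard error 0.22, adjusted p = 0.000328), and Itga6, which pairs to bind laminin and CCN proteins, by -1.20 (standard error 0.08, adjusted p = 4.08e-07). Itga5 lies on chromosome 15, and the part of the shift of that chromosome was not tested. Itgb1, another partner of αv, had 288 ± 10.1 CPM in control against 276 ± 7.67 CPM in JAG1-overexpressing cells (SD, n = 3 each). It was not called (log2 fold change -0.06, standard error 0.05, adjusted p = 0.305). Itgb3 and Itgb8, also partners of αv, had at most 4 reads in a library, and Cd36, a thrombospondin receptor, had at most 1.

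Because Ctgf and Cyr61 are targets of YAP and TAZ, coactivators that act through TEAD factors and are held back by the Hippo kinases, 26 known target genes including both members were examined. Of 25 tested, 6 were higher and 12 lower, or 72.0% called beside 55.1% of all tested genes, with a median log2 fold change of -0.21. The called targets went in both directions. Igfbp3, a binding protein of insulin-like growth factors, fell from 33.7 ± 9.33 to 2.88 ± 0.289 CPM (SD, n = 3 each) (log2 fold change -3.55, standard error 0.22, adjusted p = 1.53e-07), and Foxf2, a forkhead factor, changed by -1.29 on the log2 scale (standard error 0.16, adjusted p = 3.77e-05). Myof, which encodes the membrane repair protein myoferlin, rose by 1.68 on the log2 scale (standard error 0.05, adjusted p = 1.02e-09). Ankrd1, a nuclear ankyrin repeat protein, had 196 ± 0.814 CPM in control against 423 ± 23.5 CPM in JAG1-overexpressing cells (SD, n = 3 each) (log2 fold change 1.11, standard error 0.05, adjusted p = 1.80e-08). Myof and Ankrd1 lie on chromosome 19, whose 422 tested genes had a median log2 fold change of 0.61, and the part of that shift in their rise was not tested. Wwc1, an upstream Hippo regulator, rose by 1.12 (standard error 0.32, adjusted p = 0.0119), a call that was lost without control replicate 2 (adjusted p = 0.0510) and without JAG1-overexpressing replicate 2 (adjusted p = 0.0620).

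**Figure D5:**
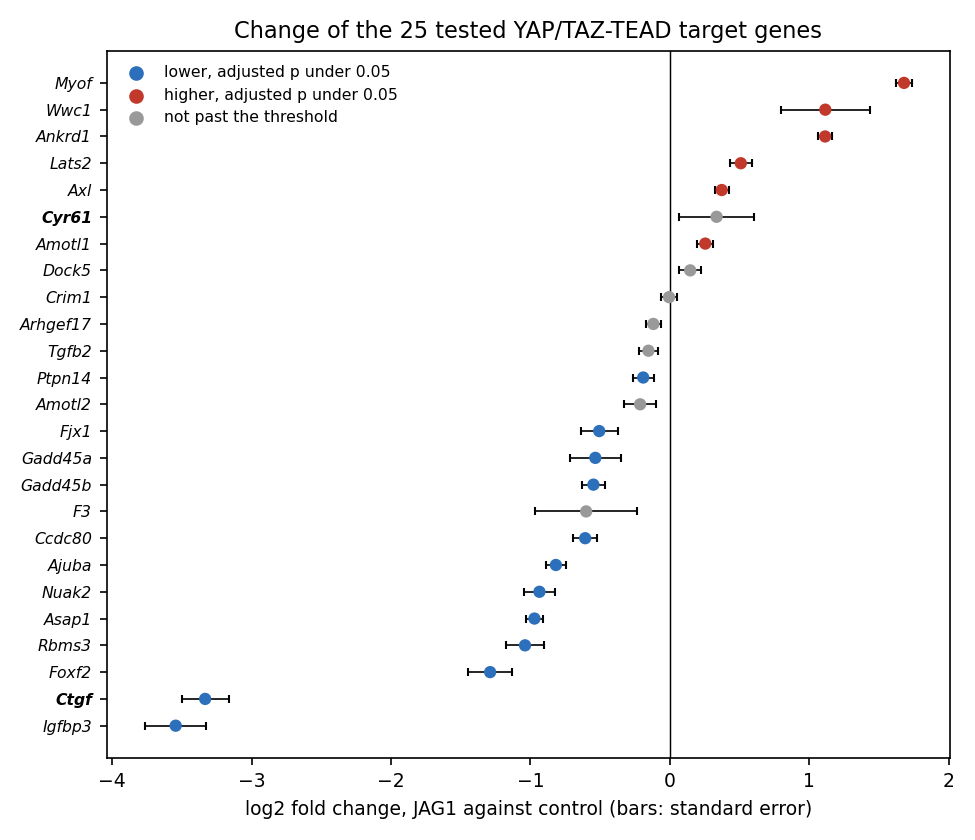
Log2 fold change, JAG1-overexpressing against control, of the 25 tested YAP/TAZ-TEAD target genes with the standard error as bars, the color giving the call and the members Ctgf and Cyr61 in bold. Values run from -3.55 for Igfbp3 to 1.68 for Myof.

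The low level of Cyr61 and Ctgf in control replicate 1 was set beside these targets. Of the 25 tested targets, 13 had their lowest control level in that replicate, or 52.0%, beside 38.2% of all tested genes, and 11 of 23 did so when the members were left out. The median log2 ratio of control replicate 1 to the other controls was -0.056 for these 23 targets, against -0.0049 for all tested genes. F3, which encodes tissue factor, is named after its values were seen and does not stand for the list. It had 78, 175 and 286 reads in the control libraries and did not pass the test (adjusted p = 0.184). Ankrd1, another target, had 197, 195 and 195 CPM in these libraries.

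The Hippo kinases and the YAP/TAZ-TEAD factors, 17 genes, were all tested, with 8 higher and 3 lower (median log2 fold change 0.21). The number higher was 5 without control replicate 1 and also without JAG1-overexpressing replicate 1. Among the TEAD factors, Tead2 fell from 162 ± 15.3 to 45.2 ± 3.76 CPM (SD, n = 3 each) (log2 fold change -1.84, standard error 0.08, adjusted p = 1.42e-08), and Tead3 rose from 2.14 ± 0.711 to 11.5 ± 2.01 CPM (SD, n = 3 each) (log2 fold change 2.42, standard error 0.22, adjusted p = 3.18e-06). Tead1, at 73.7 ± 10.2 against 89.3 ± 6.38 CPM (SD, n = 3 each), had the highest level of them in JAG1-overexpressing cells. It changed less (log2 fold change 0.28, standard error 0.10, adjusted p = 0.0299), and Tead4 was not called (adjusted p = 0.185). Vgll3, a cofactor of TEAD factors, rose by 1.73 (standard error 0.10, adjusted p = 1.24e-07) and the kinase gene Lats2 by 0.51 (standard error 0.08, adjusted p = 0.000218). Stk3, a Hippo kinase whose gene lies on chromosome 15, had a log2 fold change of -0.87 (adjusted p = 8.91e-07), and Amot, an adaptor that binds YAP, of -0.72 (adjusted p = 2.34e-05).

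Ctgf, Thbs1 and Postn are also known targets of TGF-β. In a list of 17 TGF-β targets that holds these 3 genes, 15 were tested, 10 were lower and 1 was higher (median log2 fold change -0.40). Pmepa1, a feedback inhibitor of the pathway, fell from 143 ± 6.797 to 20.8 ± 2.06 CPM (SD, n = 3 each) (log2 fold change -2.78, standard error 0.08, adjusted p = 4.37e-10). Smad6, an inhibitory SMAD best known from BMP signaling, was the gene that rose (log2 fold change 1.17, standard error 0.13, adjusted p = 1.40e-05). Smad7, another inhibitory SMAD and named after its values were seen, did not pass the test, with 11.1 ± 1.13 CPM in control against 11.4 ± 1.70 CPM in JAG1-overexpressing cells (SD, n = 3 each).

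Of 10 proteases that are known to cleave matricellular proteins, 8 were tested, with 2 higher and 5 lower (median log2 fold change -1.41). Mmp9, a gelatinase, had 56 to 58 reads in the control libraries and at most 2 in a JAG1-overexpressing library, so that it was at least 16.5-fold lower. Mmp2 changed by -2.94 on the log2 scale (standard error 0.28, adjusted p = 4.47e-06) and Plau, the urokinase activator of plasminogen, by -2.84 (standard error 0.24, adjusted p = 2.26e-06). Adamts1, which cleaves thrombospondin 1, rose from 22.9 ± 1.48 to 73.9 ± 3.14 CPM (SD, n = 3 each) (log2 fold change 1.69, standard error 0.07, adjusted p = 8.37e-09), while Plat, the tissue-type activator of plasminogen, rose by 0.93 (standard error 0.15, adjusted p = 0.000270).

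Matricellular genes are expressed by fibroblasts and mural cells as well, and markers of these and other cell types were read beside the results. Of 12 fibroblast and mural markers, 8 were tested, with 6 lower and 1 higher. The summed level of this list was 828 to 899 CPM in control and 324 to 372 CPM in JAG1-overexpressing libraries. The marker that rose was Col1a2, a chain of collagen I, with 3.35 ± 0.528 CPM in control against 50.7 ± 6.20 CPM in JAG1-overexpressing cells (SD, n = 3 each), a change of 3.92 on the log2 scale (standard error 0.13, adjusted p = 1.42e-09), while Col1a1, the other chain, was lower (-0.53, adjusted p = 3.50e-05). Lum, Rgs5, Cspg4 and Fap were at 0 reads in every library. The part of such cells in the result was not tested. The summed level of the microglia list was 5.75 to 6.23 CPM and 3.58 to 4.68 CPM, with 1 of 3 tested genes higher and 1 lower. The endothelial list (1.38 to 2.20 and 1.30 to 1.46 CPM) and the oligodendrocyte list (0.523 to 1.19 and 0.243 to 0.698 CPM) had 1 tested gene each, which was not called. Of the neuron markers (100.3 to 109.9 and 58.6 to 61.7 CPM), 3 were tested, with 1 higher and 2 lower, while Snap25 and Syt1 had 0 reads in every library.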

How the data were processed

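RNA of 3 control and 3 JAG1-overexpressing libraries was measured. The authors deposited, for each library, raw read counts per gene symbol and a log2 of their normalized read count. Per the labels' processing notes, the submitters used Bowtie2, bedtools and edgeR with GRCm38 (mm10), and neither versions nor the annotation are given in the sources used here. Nor is it given whether counting used strand, and annotated genes without a row of their own overlap Ctgf, Sparcl1, Thbs3, Tnc and Postn. Counts were analysed in R 4.3.3 with edgeR 4.0.16 (filterByExpr at a minimum count of 10, TMM, quasi-likelihood test, Benjamini-Hochberg adjustment over 11712 genes), and the deposited log2 values served for an alternative with limma 3.58.1. Depth was 14341634 to 20489062 reads, and 3 reads, taken as the limit of detection, equal 0.148 to 0.206 CPM. DESeq2 1.42.0 and other alternatives are given at the end. Scripts for the tests were tested on simulated data. Libraries of a group differed by more than counting error, with a chi-square of 3.76 or more for each degree of freedom.

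All members and Jag1 were named. From each pathway list, up to 3 called genes with the largest rise and up to 3 with the largest fall were named if their mean was at least 1 CPM, as were the 3 genes most like Ctgf and Sparc by Pearson's r among those with at least 10 CPM, and the genes beside Spp1 and Sparcl1. Genes given for contrast (Smad7, F3, Itgb1, Itgb3, Itgb8, Cd36, Tead1, Tead4) and the marker genes singled out were added once values were known. The gene beside a member is the nearest annotated one that has a row. The members and lists were chosen with earlier results of these data known. Lists came from general knowledge, and no test was made over a list. Names and places came from RefSeq for GRCm38.p6.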

Additional observations from a re-analysis of the deposited data

How the results depend on the processing

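The calls of Ctgf, Thbs1, Sparc and Spp1 kept their direction and their side of the threshold under DESeq2, library size alone, upper-quartile scaling, no filter, a minimum mean count of 10, limma-voom, the authors' log2 values, a replicate block and each library left out. None of the scalings moved the median of all genes by over 0.1. Leaving out 1 library moved Thbs2 between -0.54 and -0.015, Tnc between 0.28 and 0.73, Thbs3 between -0.053 and 0.21, negative without JAG1-overexpressing replicate 1, and Cyr61 between 0.00419 and 0.64, past the threshold without control replicate 3 (adjusted p = 0.0316); the number of higher members was then 2, and 1 without each other library. Under the same alternatives the number of higher relatives ran from 0 (without control replicate 2 or JAG1-overexpressing replicate 2) to 1 and that of higher Hippo genes from 5 (without control replicate 1 or JAG1-overexpressing replicate 1) to 9. With a limit of 2-fold, 0 members were higher and 1 was lower, against 5.46% and 8.49% of all tested genes, and the numbers were 0 higher and 2 lower for the relatives, 0 higher and 3 lower for the receptors, 3 and 4 for the YAP/TAZ-TEAD targets, 2 and 1 for the Hippo genes, 1 higher and 3 lower for the TGF-β targets and 1 higher and 5 lower for the proteases. For Jag1 and the genes named as the largest changes of the pathway lists, 402 values kept their call and 4 lost it, those of Wisp2 and Wwc1. The alternatives were not run on single genes named for other reasons. The lower bound for Sparcl1 was 1.01-fold without control replicate 3, an alternative chosen after seeing the data. With no filter on low counts, Sparcl1 was tested, with adjusted p = 0.00370, on 3, 4 and 11 control reads against 0 in each JAG1-overexpressing library. That setting gave smaller adjusted p-values for the called members too, as for Spp1 (5.06e-13, against 4.47e-05 with the filter). Nothing is therefore concluded from the value for Sparcl1. Whether libraries with the same replicate number share more than that number is not given in the sources used here. Their deviations from the group means correlated by 0.19, 0.06 and 0.13, and each library correlated best with its own number. The replicate block gave 3380 genes higher and 3331 lower, against 3211 and 3247 without it. Cyr61 was then at 0.45 (adjusted p = 0.0709), still not called. A shared batch was not tested. Thbs2 and Tnc had 14 to 49 reads per library, and the part of depth in their missing calls was not tested.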
